A study of Mus musculus with 8 samples.

Results

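The genes described here encode the nuclear subunits of the mitochondrial respiratory chain and of ATP synthase, with a few of the factors that assemble them. They were taken from the gene table by name, as every symbol that begins with Nduf, Sdha to Sdhd, Uqcr, Cox4 to Cox8 or Atp5 and is not marked as a pseudogene by "-ps". The rule found 96 of the 47643 genes in the table. By their known roles, 82 are structural subunits, 12 are assembly factors and 2, Cox7a2l and Atp5s, are associated proteins. Complex I has 44 of the 96, complex II 8, complex III 8, complex IV 20 and complex V 16. The 3 genes whose complex differs from their name are Ndufa4 and Ndufa4l2, counted with complex IV, and Atp5sl, counted with the assembly factors of complex I. The 4 symbols left out for "-ps" are processed pseudogenes with a mean of 0 to 3.67 TPM.

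RNA was measured in quadriceps muscle of 4 Nup210-/- and 4 Nup210+/+ mice of the C57BL/6 strain, with 1 polyA-selected library per mouse. The methods give the background of the line as C57BL/6J. Nup210 is a transmembrane protein of the nuclear pore. The Nup210-/- line is a constitutive knockout in which Hprt-Cre had removed a floxed exon 2 from every tissue, so muscle fibres, blood cells and stroma all lacked the gene, and the Nup210+/+ mice were wild type. The age and sex of the sequenced mice were not given in the sources used here.

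In the inner mitochondrial membrane, complex I takes electrons from NADH and complex II takes them from succinate, complex III passes them to cytochrome c, and complex IV reduces oxygen. Complexes I, III and IV pump protons, and complex V, ATP synthase, uses the proton gradient to make ATP. The catalytic core of complex IV and several membrane subunits of complexes I, III and V come from mitochondrial DNA, and the remaining subunits are made in the cytosol and imported. Slow, oxidative muscle fibres hold more of these complexes than fast, glycolytic ones, and several complex IV subunits have a heart and skeletal muscle isoform beside a ubiquitous one.

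Values are TPM, a measure of transcript abundance in which the read estimate for a gene is divided by transcript length and each library sums to 1000000. Levels of different genes can therefore be set side by side, but the read depth behind them is unknown. In the comparison of genotypes, TPM were scaled by the median of ratios and tested with limma on log2(scaled TPM + 1). Genes averaging 0.5 TPM or more were kept, which left 14229, and a log2 fold change is the Nup210-/- mean minus the Nup210+/+ mean on that scale. Of the 96 genes 94 passed this filter, and the remaining genes were Cox7b2 and Cox8c. Nup210 mRNA itself was 10.3 ± 1.38 TPM in Nup210-/- and 7.93 ± 2.06 TPM in Nup210+/+ muscle (SD, n = 4; log2 fold change 0.44, limma adjusted p = 0.231), so its level did not mark the genotype. A gene-level value does not show the deleted exon apart from the others. Several libraries carried other differences. Summed TPM of 6 granulocyte precursor markers was 382 in Nup210+/+ replicate 2 and 0.31 to 2.12 in the other 7 libraries. The 12 leukocyte markers summed to 245 to 271 TPM in Nup210-/- and 280 to 550 TPM in Nup210+/+ libraries, and all 12 had a negative log2 fold change. The 9 fast fibre markers all had a positive log2 fold change, with a median of 0.18. Of the 9 slow or oxidative fibre markers 7 had a negative one. The others were Myh7 at 0.02 and Myh2, the myosin of type IIa fibres, at 0.19. Every marker of both fibre lists was above 0 in every library. The 5 erythroid markers summed to 880 to 2688 TPM in Nup210-/- and 1216 to 5305 TPM in Nup210+/+ libraries, and the 9 adipocyte markers to 550 to 868 and 606 to 1456 TPM.

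The 96 genes together held 3.59 to 4.04% of all TPM in the 8 libraries. Complex V had the highest level of a single gene. Atp5b, the catalytic beta subunit of the F1 head, averaged 2030 TPM, and Atp5a1, its alpha partner in the same ring, averaged 1103 TPM. The ratio of Atp5b to Atp5a1 stayed between 1.75 and 1.87 in the 8 libraries. In complex IV the highest level was that of Ndufa4 at 1195 TPM, followed by Cox6a2 at 1012 TPM and Cox4i1 at 1006 TPM. Ndufb9, an accessory subunit, led complex I at 784 TPM. Uqcrq, a small accessory subunit, led complex III at 683 TPM, and Sdhb, the iron-sulfur subunit, led complex II at 487 TPM.

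The range of the structural subunits in mRNA differed between complexes. The 4 subunits of succinate dehydrogenase lay between 273 TPM (Sdhd) and 487 TPM (Sdhb). The 8 subunits of complex III lay between 392 TPM (Uqcrfs1, the Rieske iron-sulfur protein) and 683 TPM. Of the 36 structural subunits of complex I, 35 were at 100 TPM or more, with a median of 256 TPM over the 36. The exception was Ndufa11, an accessory subunit of the membrane arm, at 39.7 TPM. The 15 structural subunits of complex V lay between 10.7 TPM (Atp5g2) and 2030 TPM (Atp5b). Complex IV had the structural genes of lowest level, and its genes include isoforms that are typical of other tissues. Of its 19 structural genes 12 were at 100 TPM or more, and Cox8c, a testis isoform, was listed at 0 in all 8 libraries. Cox7b2 was listed at 0 in 6 libraries, at 0.23 TPM in Nup210-/- replicate 3 and at 0.60 TPM in Nup210+/+ replicate 4. The 12 assembly factors had a median of 28.7 TPM and a range from 5.65 TPM (Sdhaf1) to 52.4 TPM (Ndufaf5), so each of them lay below every structural subunit of complexes II and III.

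**Figure D1:**
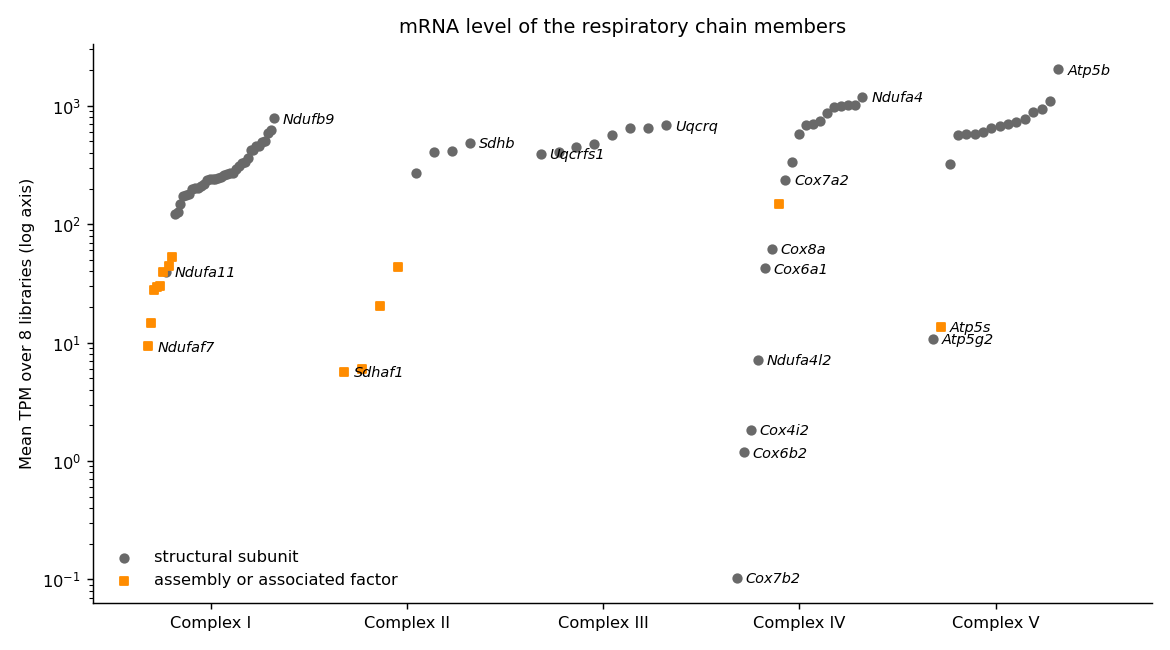
Mean TPM over the 8 libraries for each gene, on a log axis, sorted within complexes I to V. Structural subunits are grey circles and assembly or associated factors are orange squares. Cox8c is not drawn because it is at 0. Most structural subunits sit at 100 TPM or more, Atp5b lies above the rest at 2030 TPM, and complex IV reaches down to Cox7b2 at 0.104 TPM.

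The number of reads that the authors' estimation assigned to some of these genes depends on near-identical pseudogenes. Processed pseudogenes are copies of an mRNA inserted elsewhere in the genome, and a read that fits gene and copy alike has to be divided between them. At 95% identity over at least 75 bases and over at least 50% of the copy, 23 of the 96 genes had 46 such copies in the GENCODE M21 annotation. For 11 genes the highest copy had a mean of 10 TPM or more. Cox7c, a small membrane subunit of complex IV, averaged 332 TPM, and its copy Gm12338 averaged 1380 TPM. Cox7c held 18.2% of the TPM of the gene and its copies. Ndufb4, an accessory subunit of complex I, held 19.8%, with 122 TPM against 493 TPM for Ndufb4c. Copies carry their GENCODE M21 names here, and Ndufb4c has another symbol, Gm3244, in the table, so the name rule did not take it. Atp5j, Atp5l and Atp5g1 of complex V held 34.4%, 43.3% and 70.4%. Atp5g2, 1 of 3 genes for the same c-ring protein, held 3.35%, with 10.7 TPM against 309 TPM for Gm10175. These are shares of TPM, which is divided by length, and not of reads. Gm11966, the copy of Atp5j, has 87 bases, and Gm12338 has 192. The longest coding transcripts of Atp5j and Cox7c have 809 and 709 bases. A short copy thus has a larger share of TPM than of reads, and the shares of reads are not known. The division of reads between gene and copy is an estimate, and the levels of these genes are uncertain to that extent. No such copy was found for Cox6a1, Cox6a2, Cox7a1, Cox7a2, Cox8a or Cox8b.

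No gene of the set passed an adjusted p of 0.05 between Nup210-/- and Nup210+/+ muscle (limma, 0 of 94). Over all genes tested the share that passed was 0.112%, or 16 of 14229 (0.0633% lower and 0.0492% higher), so a count of 0 in 94 lies at that background. At an unadjusted p under 0.05, 1 of the 94 genes was counted (1.06%, against 14.2% of all genes tested). That gene was Cox6a1. In the 8 libraries it was also the only gene of the 94 whose scaled values did not overlap between genotypes, and it was lower in Nup210-/- muscle. Over all genes tested 9.38% did not overlap, 4.6% in the lower and 4.78% in the higher direction. Both counts rested on Nup210+/+ replicate 4. Without it 13 of the 94 genes had an unadjusted p under 0.05 (13.8%, against 18.8% of all genes tested), 12 of them higher in Nup210-/- muscle. Without it 12 of the 94 did not overlap (12.8%, against 18.4%), 11 of them higher. Without Nup210-/- replicate 1 the counts were 3 and 3, without Nup210-/- replicate 2 they were 2 and 3, and without Nup210+/+ replicate 1 they were 2 and 1. With any other library left out both counts were 1. The 95% interval of the log2 fold change lay within 0.5 of 0, or within 1.41-fold in either direction, for 88 of the 94 genes. Over all genes tested this held for 63.4%. The other 6 genes were Ndufaf3, Cox6a1, Cox6b2, Cox4i2, Cox7c and Atp5g2. The median standard error was 0.09 in the group and 0.12 over all genes. The median SD within a genotype, in log2(scaled TPM + 1), was 0.135 in the group and 0.168 over all genes. Over the 904 genes at 100 TPM or more it was 0.122, so the group did not vary less than abundant genes.

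The sum of TPM over a complex differed between genotypes by less than the SD of the wild-type mice for each complex, but by more than the SD of the Nup210-/- mice for complexes III and IV. Complex I summed to 11061 ± 386 TPM in Nup210-/- and 11236 ± 521 TPM in Nup210+/+ muscle (SD, n = 4). Complex II summed to 1642 ± 66.7 and 1674 ± 121 TPM, and complex III to 4169 ± 114 and 4363 ± 258 TPM. Complex IV summed to 9462 ± 294 and 9758 ± 522 TPM. Complex V summed to 10982 ± 453 and 11356 ± 522 TPM. The ranges of the genotypes overlapped for each of the 5 complexes. The ratio of the means, Nup210-/- over Nup210+/+, was 0.984, 0.981, 0.955, 0.970 and 0.967 for complexes I to V.

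The sign of these small differences depended on the scaling. With median-of-ratios scaling 78 of the 94 log2 fold changes were above 0, with a median of 0.05, where 48.7% of all genes tested were above 0 and their median was -0.01. With TPM as deposited only 21 of the 94 were above 0, with a median of -0.04, where 30.4% of all genes were above 0 and their median was -0.08. Both scales placed the median of the group slightly above the median of all genes, by 0.06 and 0.04, and on neither did a gene of the group pass the threshold. On TPM as deposited 5 genes did not overlap, all lower in Nup210-/- muscle (5.32%). Of all genes tested 8.41% did not overlap on this scale, 6.87% in the lower and 1.54% in the higher direction. The 5 genes were Cox6a1, Cox7a2, Uqcrh, Ndufaf4 and Ndufa7.

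By complex and role the scaled log2 fold changes were of like size. The 7 core subunits of the peripheral arm of complex I, through which electrons pass from NADH to ubiquinone, ran from 0.02 (Ndufs1) to 0.14 (Ndufs8). Ndufs1 was 244 ± 9.81 TPM in Nup210-/- and 258 ± 22.2 TPM in Nup210+/+ muscle, and Ndufs8 was 151 ± 9.17 and 147 ± 13.2 TPM. The 29 accessory subunits of complex I had a median of 0.06, and 28 were above 0. With TPM as deposited their median was -0.03, and 6 were above 0. Sdha, the flavoprotein of succinate dehydrogenase, was 408 ± 19.0 TPM in Nup210-/- and 418 ± 30.7 TPM in Nup210+/+ muscle. The 4 subunits of complex II ran from 0.00 (Sdhd) to 0.14 (Sdhc), and its 4 assembly factors from -0.03 (Sdhaf4) to 0.06 (Sdhaf3).

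In complex III the core proteins Uqcrc1 and Uqcrc2 and the Rieske protein Uqcrfs1 had log2 fold changes of 0.04, 0.05 and 0.04. The extremes of that complex were Uqcrh, the hinge protein, at -0.04 and Uqcr11 at 0.15. Uqcrh was 627, 621, 605 and 626 TPM in the 4 Nup210-/- libraries and 691, 656, 659 and 717 TPM in the 4 Nup210+/+ libraries. All 4 Nup210-/- values lay below all 4 Nup210+/+ values as deposited, and after scaling the groups overlapped (limma adjusted p = 0.851). In complex V the F1 subunits ran from 0.03 (Atp5b) to 0.10 (Atp5d), with 5 of 5 above 0, against 1 of 5 with TPM as deposited. Atp5l, a membrane subunit, was lowest of the complex at -0.01 after scaling.

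Atp5g2 had the highest log2 fold change of complex V, 0.40 (SE 0.24, limma adjusted p = 0.474). Its values were 6.95, 11.3, 14.0 and 16.0 TPM in Nup210-/- and 12.5, 8.82, 9.64 and 6.55 TPM in Nup210+/+ libraries. The groups overlapped, and the lowest Nup210-/- value was below 3 of the 4 Nup210+/+ values. The copy Gm10175 was 312 ± 13.9 TPM in Nup210-/- and 306 ± 4.40 TPM in Nup210+/+ muscle. Gene and copies together were 324 ± 11.8 and 316 ± 3.09 TPM, a ratio of 1.03, where the ratio for Atp5g2 alone was 1.29. For Cox7c, with a log2 fold change of 0.18 (SE 0.15), the ratio was 1.07 for the gene alone and 0.957 with its copies. The other c-ring genes, Atp5g1 and Atp5g3, had log2 fold changes of 0.09 and 0.08.

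The 2 assembly factors Ndufaf3 and Ndufaf4 had the highest and the lowest log2 fold change of complex I. Ndufaf3, an early assembly factor of complex I, was 28.1, 36.6, 31.5 and 27.9 TPM in Nup210-/- and 23.0, 24.9, 34.1 and 32.4 TPM in Nup210+/+ libraries. Its groups overlapped, with a log2 fold change of 0.21 (SE 0.13). Ndufaf4, its partner in assembly, was 38.4, 37.7, 35.5 and 34.4 TPM in Nup210-/- and 44.7, 39.8, 45.1 and 40.0 TPM in Nup210+/+ libraries. The groups of Ndufaf4 did not overlap as deposited but overlapped after scaling, with a log2 fold change of -0.12 (SE 0.06, limma adjusted p = 0.432). Ndufaf3 was the only complex I gene whose 95% interval reached beyond 0.5.

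**Figure D2:**
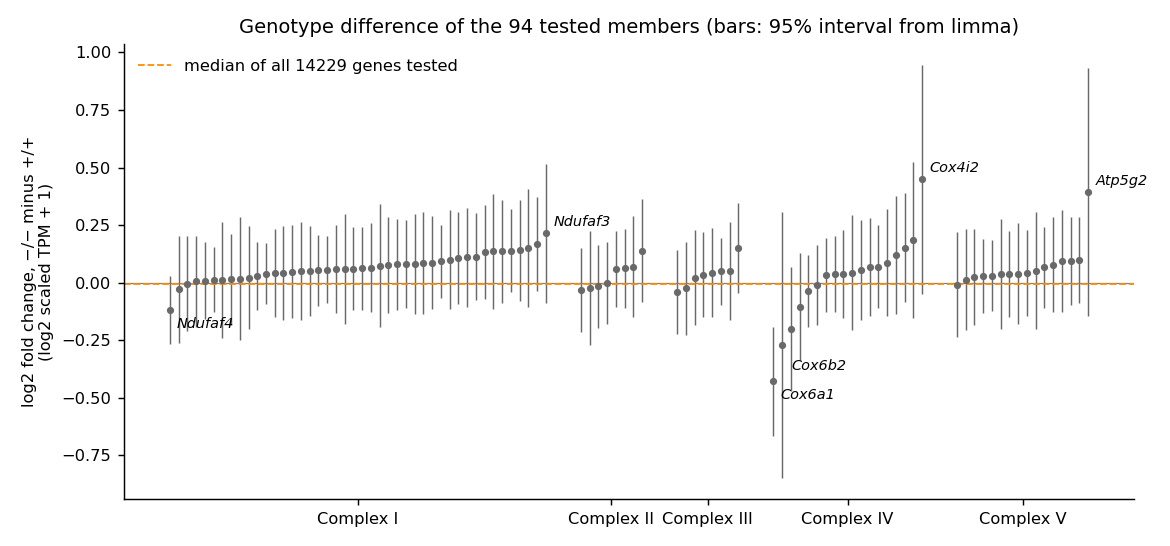
Log2 fold change, Nup210-/- minus Nup210+/+, of the 94 genes tested, sorted within each complex; bars are 95% intervals from limma on log2(scaled TPM + 1). The dashed line is the median of all 14229 genes tested. Cox6a1 lies lowest at -0.43, and the genes with the longest bars in complexes IV and V, Cox4i2, Cox6b2 and Atp5g2, average under 11 TPM.

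Libraries of 1 genotype lay further apart than the genotype means did, and they did so for the 5 complexes alike. The deviation of a gene in a library is its log2(scaled TPM + 1) minus its mean over the 8 libraries. The median deviation of the 94 genes was 0.16 in Nup210+/+ replicate 4 and 0.13 in Nup210-/- replicate 4. It was -0.12 in Nup210+/+ replicate 2 and -0.14 in Nup210+/+ replicate 3, and -0.03 to 0.02 in the other 4 libraries. In Nup210+/+ replicate 4, 88 of the 94 genes lay above their own mean, against 7 in replicate 2 and 8 in replicate 3 of the same genotype. Over all genes tested, 47.9 to 49.3% lay above their mean in each library. The highest and lowest libraries for the group were thus both wild type.

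**Figure D3:**
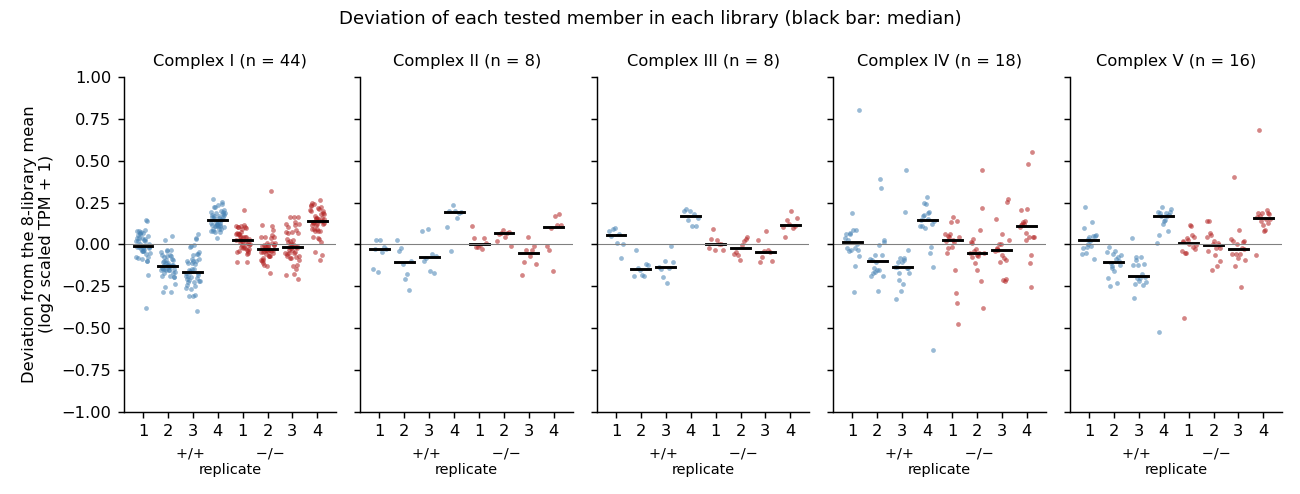
Deviation of each tested gene from its 8-library mean, in log2(scaled TPM + 1), for Nup210+/+ (blue) and Nup210-/- (red) replicates 1 to 4; black bars are medians. In each of the 5 complexes, Nup210+/+ replicate 4 and Nup210-/- replicate 4 have the 2 highest medians, and Nup210+/+ replicates 2 and 3 have the 2 lowest. The low place of Nup210+/+ replicate 3 depends on the scaling.

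Within the wild type, the fast fibre markers summed as TPM were in the same order as the scaled median deviations of the respiratory genes. On TPM as deposited the respiratory genes summed to 40373, 39229, 35858 and 38088 in Nup210+/+ replicates 4, 1, 2 and 3. On that scale replicate 2, and not replicate 3, was lowest. The fast fibre markers summed to 90598 TPM in Nup210+/+ replicate 4, 84952 in replicate 1, 83132 in replicate 2 and 80744 in replicate 3. Among the Nup210-/- libraries the highest sum, 93953 TPM, was in replicate 3, whose respiratory genes had a median deviation of -0.03. The leukocyte marker sums of the wild type were in the opposite order to the fast fibre sums. They were 280, 370, 461 and 550 TPM in Nup210+/+ replicates 4, 1, 2 and 3. The part of these differences in the shift of the respiratory genes was not tested. In bulk muscle, fewer cells of a type and less RNA per cell cannot be told apart. Leaving out Nup210+/+ replicate 4 raised the median log2 fold change of the group from 0.05 to 0.11 and the number above 0 from 78 to 88. The median was 0.02 with 64 above 0 without Nup210+/+ replicate 2, the library with granulocyte precursor transcripts. It was 0.01 with 64 above 0 without Nup210+/+ replicate 3 and 0.02 with 61 above 0 without Nup210-/- replicate 4. No gene of the group passed the threshold in any of the 8 fits that left out 1 library. Among the genes at 100 TPM or more the coefficient of variation over the 8 libraries was 2.79 to 14.8%, and Cox7c had the highest.

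The isoforms of complex IV showed quadriceps to be dominated by the muscle forms. Cox6a2, the heart and muscle form of subunit VIa, averaged 1012 TPM against 42.5 TPM for the ubiquitous Cox6a1. Cox7a1, the muscle form of subunit VIIa, averaged 575 TPM against 236 TPM for Cox7a2. Cox8b, the muscle form of subunit VIII, averaged 694 TPM against 62.3 TPM for Cox8a. Cox4i1, the common form of subunit IV, averaged 1006 TPM against 1.83 TPM for Cox4i2, a form known for its oxygen-responsive expression in lung. Cox6b2, a testis form, averaged 1.19 TPM against 708 TPM for Cox6b1, and Ndufa4l2 averaged 7.18 TPM against 1195 TPM for Ndufa4.

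The promoter of Cox6a1 is shown because that gene had the lowest log2 fold change of the group, and those of Cox8a and Cox8b as an example of a ubiquitous and a muscle isoform. RefSeq sequences (GRCm38.p6, 250 bases before to 50 after the gene start) were available for 80 of the 96 genes, 77 matched by symbol and 3 by synonym. The bases upstream of the annotated starts are printed for Cox6a1 (chr5:115348982-115349208, minus strand, 227 bases), Cox8a (chr19:7217617-7217866, minus strand, 250 bases) and Cox8b (chr7:140900447-140900696, minus strand, 250 bases). Capitals mark matches to the motif of NRF-1, a nuclear respiratory factor, and to CAGCTG, a form of the E-box. The E-box is the element bound by myogenic helix-loop-helix factors, and its other forms were neither searched nor marked.
Cox6a1: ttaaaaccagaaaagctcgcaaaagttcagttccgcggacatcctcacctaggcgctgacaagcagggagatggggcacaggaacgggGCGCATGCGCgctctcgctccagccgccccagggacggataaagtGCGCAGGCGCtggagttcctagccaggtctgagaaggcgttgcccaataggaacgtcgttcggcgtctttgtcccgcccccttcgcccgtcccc
Cox8a: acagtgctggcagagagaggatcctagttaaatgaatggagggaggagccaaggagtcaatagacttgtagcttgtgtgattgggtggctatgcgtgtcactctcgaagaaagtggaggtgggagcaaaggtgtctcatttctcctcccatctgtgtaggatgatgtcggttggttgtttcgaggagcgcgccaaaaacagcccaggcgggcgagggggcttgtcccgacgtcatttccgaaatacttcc
Cox8b: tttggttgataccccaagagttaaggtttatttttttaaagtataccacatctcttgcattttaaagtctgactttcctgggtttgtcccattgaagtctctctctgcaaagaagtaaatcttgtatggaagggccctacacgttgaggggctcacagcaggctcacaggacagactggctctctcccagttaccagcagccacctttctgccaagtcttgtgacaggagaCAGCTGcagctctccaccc

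The Cox6a1 stretch holds 2 NRF-1 matches, which begin 139 and 94 bases before its end. The Cox8b stretch holds 1 CAGCTG, which begins 19 bases before its end. The Cox8a stretch holds neither the NRF-1 motif nor CAGCTG, though it holds another form of the E-box, CATCTG. The NRF-1 motif was searched in the 300-base windows as GCGCA, any base, then GCGC, and for the other strand as GCGC, any base, then TGCGC. It was present in 21 of the 80 windows of the group (26.2%) and in 5.19% of 27025 windows of all genes, or 7.17% of those of coding genes. The motif of the ETS factors that include NRF-2, CCGGAAG or CTTCCGG, was present in 20 of the 80 (25.0%), against 9.93% of all and 12.9% of coding windows. Cox6a1 and Cox8a were among these 20, with matches that do not lie wholly within the printed stretches. The E-box CAGCTG was present in 6 of the 80 (7.5%), against 18.3 and 17.4%. The windows of the group were richer in G and C, with a median of 58.4% against 52.7% for all genes and 56.3% for coding genes. The NRF-1 match was found in 9 of 39 complex I windows, 4 of 7 of complex II, 1 of 5 of complex III, 1 of 14 of complex IV and 6 of 15 of complex V. Within complex IV it was found in Cox6a1 alone. The 21 genes with the match had a median of 246 TPM and a median log2 fold change of 0.06, and the 59 without it had 310 TPM and, for the 58 tested, 0.05.

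Cox6a1 (chromosome 5, 115345642 to 115348981, minus strand, GENCODE M21 on GRCm38) had the lowest log2 fold change of the group. It was 31.7, 34.9, 38.8 and 32.2 TPM in the 4 Nup210-/- libraries and 45.1, 54.4, 63.5 and 39.0 TPM in the 4 Nup210+/+ libraries. All Nup210-/- values were below all Nup210+/+ values, but the highest of the former (38.8) and the lowest of the latter (39.0) nearly met. The means were 34.4 ± 3.27 and 50.5 ± 10.7 TPM (SD, n = 4). The log2 fold change was -0.43 (SE 0.10, 95% interval -0.67 to -0.19). The adjusted p was 0.151 in limma over all genes tested, and the two-sided exact permutation p was 0.0286, the smallest that 4 against 4 can give. The difference thus did not pass the threshold.

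Within the wild type, Cox6a1 followed the order of the summed leukocyte markers, to which Cd74 and Lyz2 contributed most. Ptprc, Laptm5, Tyrobp, Coro1a and Itgam were highest in Nup210+/+ replicate 2, and the other leukocyte markers in Nup210+/+ replicate 3. Nup210+/+ replicates 3, 2, 1 and 4 had 63.5, 54.4, 45.1 and 39.0 TPM of Cox6a1 beside 550, 461, 370 and 280 TPM of the 12 leukocyte markers. The 4 Nup210-/- libraries had 31.7 to 38.8 TPM of Cox6a1 and 245 to 271 TPM of these markers. Among them the order did not hold. Nup210-/- replicate 3 had 38.8 TPM of Cox6a1 beside 252 TPM of the markers, and replicate 2 had 34.9 TPM beside 271 TPM. None of the 12 leukocyte markers was at 0 in a library, and 1 of them, Cd52, passed the threshold, lower in Nup210-/- muscle (log2 fold change -0.81, limma adjusted p = 0.0490). The 9 endothelial and fibroblast markers summed to 628 to 743 TPM in Nup210-/- and 800 to 1188 TPM in Nup210+/+ libraries. Of the 9, 7 had a negative log2 fold change, among them every fibroblast marker. The endothelial markers were divided, with Cdh5 at 0.08, Kdr at 0.14, Pecam1 at -0.08 and Tek at -0.24. The part of either list in the Cox6a1 difference was not tested.

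**Figure D4:**
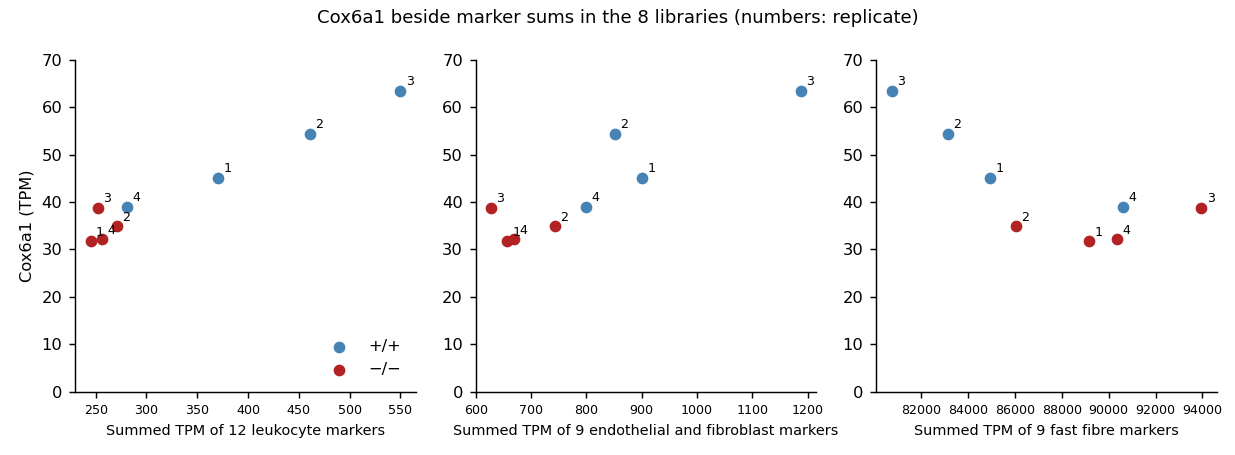
Cox6a1 TPM in each library against the summed TPM of 12 leukocyte markers, 9 endothelial and fibroblast markers and 9 fast fibre markers; numbers are replicates. The x axes do not start at 0. Nup210+/+ replicate 3 has the highest Cox6a1 (63.5 TPM) and the highest leukocyte sum (550 TPM), and Nup210+/+ replicate 4 lies next to the Nup210-/- libraries in both.

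A ratio of isoforms within a library does not depend on the scaling. The share of Cox6a1 in the TPM of Cox6a1 and Cox6a2 was 3.17, 3.35, 3.34 and 3.04% in Nup210-/- and 3.99, 5.60, 6.56 and 3.53% in Nup210+/+ libraries. The groups did not overlap, and the spread was narrower in Nup210-/- mice, at 3.22 ± 0.15%, than in wild-type mice, at 4.92 ± 1.41%. On the log2 scale the ratio was -4.87 ± 0.07 in Nup210-/- and -4.29 ± 0.43 in Nup210+/+ muscle, a difference of -0.58. The two-sided exact permutation p was 0.0286, and 0.114 after Benjamini-Hochberg adjustment over the 4 pairs compared. Cox6a2 alone was 1032 ± 66.5 and 993 ± 95.4 TPM, with a log2 fold change of 0.15 (SE 0.10). Exons of Cox6a2 overlap those of Itgad on the opposite strand, and whether the estimation used strand is not stated, whereas exons of Cox6a1 overlap no other annotated gene.

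The other pairs overlapped between genotypes. Cox7a2 made up 28.1 ± 1.25% of its pair with Cox7a1 in Nup210-/- and 30.4 ± 2.44% in Nup210+/+ muscle (log2 ratio difference -0.16, exact permutation p = 0.143, adjusted over the pairs 0.19). Cox7a2 itself was 226, 225, 224 and 228 TPM in Nup210-/- and 239, 244, 248 and 258 TPM in Nup210+/+ libraries. These values did not overlap as deposited, and after scaling the log2 fold change was -0.04 (SE 0.07). Cox8a made up 7.94 ± 1.05% of its pair with Cox8b in Nup210-/- and 8.64 ± 2.43% in Nup210+/+ muscle (difference -0.09, exact permutation p = 0.771). Cox8a was 52.0, 64.4, 52.7 and 53.0 TPM in Nup210-/- and 57.6, 83.5, 78.8 and 56.4 TPM in Nup210+/+ libraries. Nup210+/+ replicates 2 and 3 were the 2 highest for Cox8a, as they were for the share of Cox6a1, Cox7a2 and Cox8a in their pairs. The log2 fold change of Cox8a was -0.20 (SE 0.12) and that of Cox8b -0.10 (SE 0.10).

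Cox4i2 had the highest log2 fold change of the group, 0.45 (SE 0.22, limma adjusted p = 0.392), at a level near the filter. It was 1.09, 2.69, 2.27 and 2.82 TPM in Nup210-/- and 1.72, 1.45, 1.88 and 0.73 TPM in Nup210+/+ libraries. Of the 4 Nup210-/- libraries 3 lay above every wild-type one and 1 lay below 3 of them. Its share of the pair with Cox4i1 was 0.219 ± 0.069% and 0.143 ± 0.050% (log2 ratio difference 0.41, exact permutation p = 0.114, adjusted over the pairs 0.19). Cox6b2 had a log2 fold change of -0.27 (SE 0.26), and Ndufa4l2 one of 0.04 (SE 0.11).

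**Figure D5:**
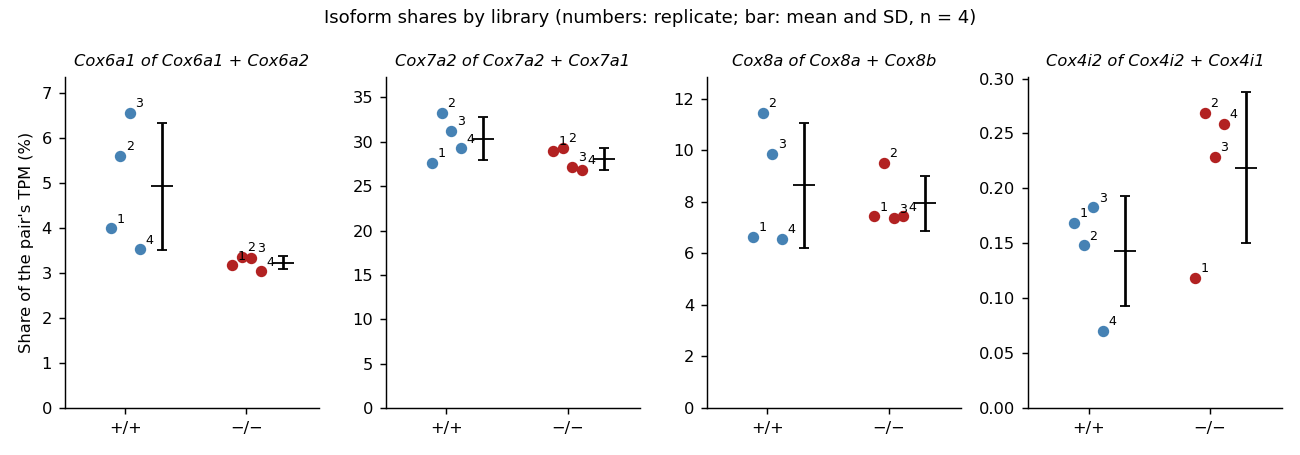
Share of the first-named isoform in the TPM of its pair, in percent, for each library; numbers are replicates, and bars are the mean and SD of 4 mice. The Cox6a1 share is 3.04 to 3.35% in the 4 Nup210-/- libraries and 3.53 to 6.56% in the 4 Nup210+/+ libraries, and the other pairs overlap.

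The other genes of the pathway gave the same count of 0. A list of 42 further assembly factors and electron carriers of the respiratory chain had 41 genes tested, of which 25 had a log2 fold change above 0 and 16 below, with a median of 0.02. The extremes were Atpif1, the inhibitor of ATP synthase, at -0.22 and Ttc19, a complex III factor, at 0.24. Atpif1 was 71.0 TPM in Nup210+/+ replicate 2 and 30.7 to 38.6 TPM in the other 7 libraries. Ttc19 was 40.9 to 42.7 TPM in Nup210-/- and 34.9 to 44.0 TPM in Nup210+/+ libraries, and after scaling its groups did not overlap (limma adjusted p = 0.189). Cox11 and Foxred1 did not overlap either, and all 3 were higher in Nup210-/- muscle. That is 3 of the 41 tested, where 9.38% of all genes tested did not overlap. Cycs, cytochrome c, had a log2 fold change of -0.01.

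The 18 genes of the tricarboxylic acid cycle and pyruvate dehydrogenase were all above 0 after scaling, from 0.01 (Dlst) to 0.15 (Dlat), with a median of 0.06, and with TPM as deposited their median was -0.04. None passed the threshold. Their median deviation by library was again highest in Nup210+/+ replicate 4 (0.18) and lowest in Nup210+/+ replicate 2 (-0.15). The 13 mitochondrially encoded subunits had a median log2 fold change of 0.17 after scaling and 0.08 as deposited, from -0.40 (mt-Co3) to 0.29 (mt-Nd4l), with 12 above 0 and none past the threshold. They summed to 242441 to 267954 TPM. mt-Co3 was 6208 ± 1337 TPM in Nup210-/- and 8820 ± 2414 TPM in Nup210+/+ muscle, with overlapping groups.

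Among 13 regulators of mitochondrial genes 6 were above 0 and 7 below, with a median of -0.07 and none past the threshold. Esrrg, an orphan nuclear receptor of oxidative muscle, was lowest at -0.29 (limma adjusted p = 0.35), with 15.3 ± 2.39 TPM in Nup210-/- and 20.1 ± 2.28 TPM in Nup210+/+ muscle. Ppargc1b, a coactivator, was highest at 0.25, with 4.04 ± 0.53 and 3.54 ± 1.14 TPM. Ppargc1a, the coactivator PGC-1alpha, was 10.3 ± 1.81 and 12.3 ± 3.85 TPM, and Nrf1, which encodes NRF-1, was 6.10 ± 0.90 and 5.80 ± 0.91 TPM.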

How the data were processed

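PolyA-selected RNA of 8 quadriceps muscles was read from one end on directional libraries. Per the labels and methods, the authors trimmed reads with cutadapt 2.3, aligned them to mm10 with STAR 2.7.0d, estimated expression with RSEM 1.3.1 and deposited TPM per gene and library. Whether RSEM used strand is not stated, and exons of 32 of the 96 genes overlap a gene on the opposite strand. The authors' DESeq2 test on estimated counts was not repeated, because TPM carry no depth. As the authors reported it, that test called more genes than the limma fit used here, even with a fold-change limit. The counts given here are those of the limma fit alone.

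TPM were scaled by the median of ratios over 15225 genes above 0 in all libraries. Log2(scaled TPM + 1) was fitted, for the 14229 genes averaging 0.5 TPM or more, with limma 3.58.1 in R 4.3.3 (eBayes with trend, genotype only), with Benjamini-Hochberg adjustment over all genes tested. Single values used two-sided exact permutation over 70 labelings. The p-values measure the spread between these mice. The fit was tested on simulated data with independent noise for each gene and no shift shared by the genes of a library. That test set a pass mark only for planted changes larger than any difference in this group. It therefore says nothing on small changes.

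Members, lists and tests were chosen with earlier results of these data known. Genes named are the highest, lowest and most abundant per complex, tissue isoforms, catalytic subunits, genes without overlap and list extremes; genes named beside them were chosen after their values were seen. Annotation is GENCODE M21 (GRCm38); copies were found with BLAST 2.17.0.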

Additional observations from a re-analysis of the deposited data

Results flagged for a closer look

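Among 104 groups of 4 libraries examined, 5 had a library set far from the other 3 by Dixon's gap over range and a 95% critical value, and chance flags about 1 group in 20, or 5.2 here. Cox6b2 was 2.73 TPM in Nup210+/+ replicate 1 and 0.87 to 1.16 TPM in the other wild-type libraries. Cox7b2 was 0.23 TPM in Nup210-/- replicate 3 and 0.60 TPM in Nup210+/+ replicate 4, and 0 in the others of each genotype. Cox8a was 64.4 TPM in Nup210-/- replicate 2 and 52.0 to 53.0 TPM in the other Nup210-/- libraries. The log2 ratio of Cox8a to Cox8b was accordingly -3.23 in that library and -3.63 to -3.61 in the others.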

How the results depend on the processing

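No gene of the group passed the threshold under any of the 20 alternatives, and the 840 alternative values of named genes kept their side of it. The median log2 fold change of the group was 0.01 to 0.11 with 1 library left out, -0.04 with TPM as deposited, and -0.12 with TPM over the summed fast fibre markers, an alternative chosen after seeing the data, in which 4 of 94 genes were above 0, 25 had an unadjusted p under 0.05 (26.6%, against 17.9% of all genes) and 15 did not overlap (16%, against 9.56%), all lower in Nup210-/- muscle. The adjusted p of Cox6a1 ranged from 0.0715 (without Nup210+/+ replicate 4) to 0.33.

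The count over all genes was less stable. It was 16 as reported, 1 with no filter, 27 at a mean TPM of at least 1, 0 with upper-quartile scaling, 10 without the mitochondrial and 20 highest genes, 0 without the trend (1952 at an unadjusted p under 0.05), 84 with library weights, and 0 to 10 with 1 library left out. The labels share replicate numbers, but same-numbered libraries did not deviate together (correlations -0.03 to 0.09, 2 of 8 libraries closest to their own number). With the replicate block 0 genes passed (1850 at an unadjusted p under 0.05), and the Cox6a1 to Cox6a2 difference of -0.58 had an exact p of 0.125, the smallest 4 pairs allow. With 1 library left out that difference was -0.73 to -0.42, and its exact p was 0.0857 without any 1 of the Nup210-/- libraries. The Cox8a to Cox8b difference, -0.09 as reported, was 0.07 without Nup210+/+ replicate 2. The cause was not tested.

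The ratios of summed TPM for complexes I to V were 1.05, 1.05, 1.02, 1.03 and 1.03 with median-of-ratios scaling and 1.07, 1.06, 1.04, 1.05 and 1.05 with upper-quartile scaling. Without the mitochondrial and 20 highest genes those of complexes I, III, IV and V were 1.03, 1.00, 1.02 and 1.02. Depth is unknown, so genes near 1 TPM have no counting error attached.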
